A study of Mus musculus with 3 samples.

Results

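The genes described here encode parts of the sodium pump and of the channels that work beside it in the basolateral membrane of the distal convoluted tubule. They are 7 genes chosen by name, namely the pump beta subunits Atp1b1 and Atp1b3, the FXYD regulators Fxyd2 and Fxyd5, the potassium channel subunits Kcnj10 and Kcnj16, and the chloride channel subunit Bsnd. All 7 were found among the 55487 genes of the count table, each under a single Ensembl identifier. They were measured in mpkDCT4a cells, an immortalised mouse line labelled as distal convoluted tubule, in 3 RNA-seq libraries that form a single group of unmodified cells. All cells were kept at 37 °C and 5% CO2 in a medium with 2% serum, transferrin (5 µg/ml), selenate, glutamine (2 mM), dexamethasone (50 nM), triiodothyronine (1 nM), epidermal growth factor (10 ng/ml), insulin (5 µg/ml), glucose (20 mM) and HEPES (20 mM). With a single group, the design allows levels and the spread between libraries to be described, and no treatment or genotype to be compared.

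The sodium pump moves sodium out of the cell and potassium in, at the cost of ATP. Its alpha subunit is the ATPase, its beta subunit is a glycoprotein needed for folding and for delivery to the plasma membrane, and FXYD proteins are small membrane proteins that tune its affinity and turnover. In the distal convoluted tubule, potassium brought in by the pump leaves again through basolateral channels built from the Kcnj10 and Kcnj16 products, and chloride leaves through channels that need barttin, the product of Bsnd, to reach the membrane.

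Depth was low, with 436983, 482418 and 443192 counts for replicates 1, 2 and 3. Levels are in counts-per-million (CPM), on which scale a single read stood for 2.31, 2.07 and 2.24. Where no library held a read of a gene, its level could still have been as high as 2.20 CPM (3 counts of the summed library size). Intervals and limits given here cover counting error only. Detection was set at a mean level of 1 CPM or more, which 50.6% of 21974 protein-coding genes reached. At this depth 2 reads over the 3 libraries were enough for that. The threshold lies below the limit for 0 counts, so a gene not detected may exceed a detected gene. The labelled cell type was poorly borne out by its markers. Of 10 distal convoluted tubule markers 4 were detected (40%, a smaller share than over all protein-coding genes), with a summed level of 62.1 to 85.1 CPM per library. Wnk4 and Cnnm2 had 61 and 27 counts in all, Trpm6 12 and Egf 3. The sodium chloride cotransporter gene Slc12a3 and Pvalb, Klhl3, Calb1, Emx1 and Sall3 had 0 counts. Markers of other cell types gave 4 of 8 detected for proximal tubule (261 to 315 CPM, nearly all Lrp2 and Aqp1), 1 of 6 for principal cells (66.9 to 94.1 CPM, nearly all Gata3), 2 of 5 for podocytes (124 to 166 CPM, Podxl and Synpo), 3 of 5 for fibroblasts (4.48 to 18.6 CPM), 1 of 5 for leukocytes (2.07 to 4.61 CPM) and 0 of 5 each for thick ascending limb, intercalated cells and endothelium. The defining genes Slc34a1, Umod, Aqp2, Slc4a1, Nphs1, Pecam1 and Ptprc had 0 counts, and the part of these markers in the levels below was not tested. In a bulk library, fewer cells that express a gene and less RNA per cell cannot be told apart.

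The 7 genes fell into 3 levels. The beta subunit genes Atp1b1 and Atp1b3 were expressed well above most genes, Kcnj16 lay in the middle of the expressed range, and Kcnj10, Bsnd, Fxyd5 and Fxyd2 were at or near the limit of what these libraries could show. By the rule of 1 CPM, 5 of the 7 were detected, against 50.6% of all protein-coding genes. Their summed level ranged from 282 to 318 CPM per library, and their median was 6.67 CPM against 1.46 CPM over all protein-coding genes and 39.6 CPM over the detected ones. At 10 CPM or more there were 3 of the 7, Atp1b1, Atp1b3 and Kcnj16, where 40.8% of all protein-coding genes and 80.6% of the detected ones reached that level. At 100 CPM or more there were 2 of the 7, where 12.2% of all protein-coding genes and 24.1% of the detected ones did.

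**Figure D1:**
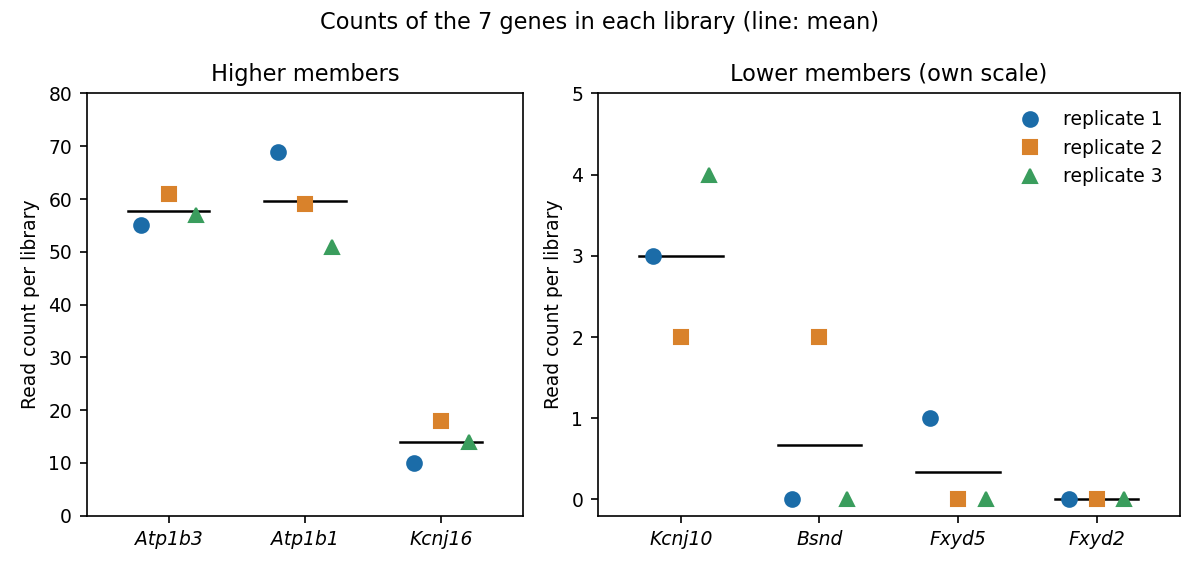
Read counts of the 7 genes in each library (vertical axis, counts; each symbol is a replicate and the line is the mean; the right panel has its own scale). Atp1b1 and Atp1b3 had 51 to 69 counts in every library and Kcnj16 had 10 to 18, while Kcnj10 stayed at 2 to 4 and Fxyd2 at 0.

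Start regions of the members with the most counts are shown because sequence there is a property that the choice of the genes did not use. RefSeq start windows (GRCm38.p6; 250 bases before to 50 bases after a start) were found for 5 of the 7 genes, and for Fxyd2 and Bsnd none was used. The 150 bases before the start are printed 5′ to 3′ on the strand of the gene, with capitals on matches to 4 motifs, each searched on both strands with overlapping matches counted. The motifs were the GC box (GGGCGG), the CCAAT box, the core promoter motif TATAAA, and an arm of the glucocorticoid receptor motif, AGAACA. Only exact matches were sought, so variants of a motif were not counted in any window. They lie at chr1:164458356-164458505 (minus strand) for Atp1b1, chr9:96364432-96364581 (minus) for the first of 2 windows of Atp1b3, chr11:110967883-110968032 (plus) for the first of 4 windows of Kcnj16 and chr1:172341060-172341209 (plus) for Kcnj10. The printed stretch of Kcnj16 holds none of the motifs.
Atp1b1: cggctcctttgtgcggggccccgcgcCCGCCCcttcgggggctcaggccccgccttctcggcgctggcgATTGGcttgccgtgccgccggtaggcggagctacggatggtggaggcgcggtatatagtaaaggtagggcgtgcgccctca
Atp1b3: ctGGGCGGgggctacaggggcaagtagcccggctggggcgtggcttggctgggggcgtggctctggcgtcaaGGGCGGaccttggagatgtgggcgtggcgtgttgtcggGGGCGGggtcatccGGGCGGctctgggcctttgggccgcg
Kcnj16: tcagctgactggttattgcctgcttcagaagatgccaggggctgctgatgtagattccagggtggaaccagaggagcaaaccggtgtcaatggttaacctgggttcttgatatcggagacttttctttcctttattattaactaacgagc
Kcnj10: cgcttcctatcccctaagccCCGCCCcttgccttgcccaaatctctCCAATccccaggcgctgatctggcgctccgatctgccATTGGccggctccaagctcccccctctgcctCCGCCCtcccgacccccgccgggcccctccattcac

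The windows of the beta subunit genes were rich in CpG. Over the whole 300 bases, the Atp1b1 window held 31 CpG and the Atp1b3 windows 34 and 39, more than 89.4%, 92.3% and 95.6% of all 32851 windows, whose median was 7. The Kcnj10 window held 21 CpG, more than 75.2% of windows. The 4 windows of Kcnj16 held 3, 8, 5 and 1, and the Fxyd5 window held 6. Kcnj10 had more CpG than any Kcnj16 window but a lower level, on 9 counts. The windows were not set against those of genes of like level, and a link of CpG to level was not tested. The GC box occurred 2 times in the Atp1b1 window, 6 times in the first Atp1b3 window, 3 times in that of Kcnj10 and 1 time in the fourth Kcnj16 window, and it is present in 35.7% of all windows. The CCAAT box, present in 37.4% of windows, occurred 2 times each in Atp1b1 and Kcnj10 and 1 time in the fourth Kcnj16 window. The glucocorticoid receptor arm, present in 19.0% of windows, was found once in the Kcnj10 window, and TATAAA, present in 13.6%, in the third Kcnj16 window. None of the 4 motifs was found in the Fxyd5 window, the second Atp1b3 window or the first and second Kcnj16 windows, which says only that these letters are not in them.

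Both beta subunit genes were expressed, at nearly the same number of reads. Atp1b1 (ENSMUSG00000026576, GRCm38 chromosome 1, 164437109 to 164458355, minus strand) encodes the beta subunit that pairs with the alpha subunit in most kidney tubule cells. It had 69, 59 and 51 counts in replicates 1, 2 and 3, or 159, 122 and 114 CPM, with a mean ± SD over the 3 libraries of 132 ± 24.0 CPM. Replicate 1 was the highest and the other libraries lay close to each other. Atp1b3 (ENSMUSG00000032412, chromosome 9, 96332655 to 96364442, minus strand), which encodes a beta subunit found in many tissues, had 55, 61 and 57 counts and 127 ± 0.684 CPM. Its SD is smaller than counting error alone would usually give at this number of counts, so it is no measure of precision. The Poisson interval of the summed count was 109 to 147 CPM for Atp1b3 and 113 to 152 CPM for Atp1b1.

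Per exon length, Atp1b3 lay above Atp1b1, but whether the interval of their ratio left out equal levels depended on how overlapping sequence was treated. In transcripts-per-million (TPM, counts divided by exon length and then rescaled to the same total in each library), Atp1b3 stood at 193, 196 and 198 in the 3 libraries and Atp1b1 at 187, 147 and 138, with means of 196 ± 2.96 and 157 ± 26.4. Atp1b3 was the higher gene in each library, and the groups of values did not overlap, although replicate 1 brought them close. The ratio of Atp1b1 to Atp1b3 per length was 0.802, with a 95% counting interval of 0.647 to 0.995. Atp1b1 shares 575 of its 3081 exon bases (18.7%) with Nme7, a gene on the opposite strand with 45 counts, and no source used here says whether reads there were counted. With only exon bases outside other genes in the length, a choice made after the data were seen, the ratio was 0.986 (0.796 to 1.22). Of the 50-base stretches of Atp1b3, 9.71% also occur in its processed pseudogene Gm1848, which had 0 counts, and with stretches found in no other gene as the length the ratio was 0.856 (0.691 to 1.06). Neither interval leaves out equal levels. Without any division by length the ratio was 1.03. Per length Atp1b3 ranked 789 and Atp1b1 1066 among 21974 protein-coding genes.

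The other beta subunit genes added almost nothing. Atp1b2, the beta subunit of glia and neurons, had 1 count in all, and Atp1b4, a muscle gene of the same family, had 0. Atp1b1 therefore held 50.7% (exact binomial interval 45.4 to 56.0%) and Atp1b3 49.0% (43.7 to 54.4%) of the 353 beta subunit counts, and between the libraries the share of Atp1b1 ran from 46.8 to 55.6%.

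**Figure D2:**
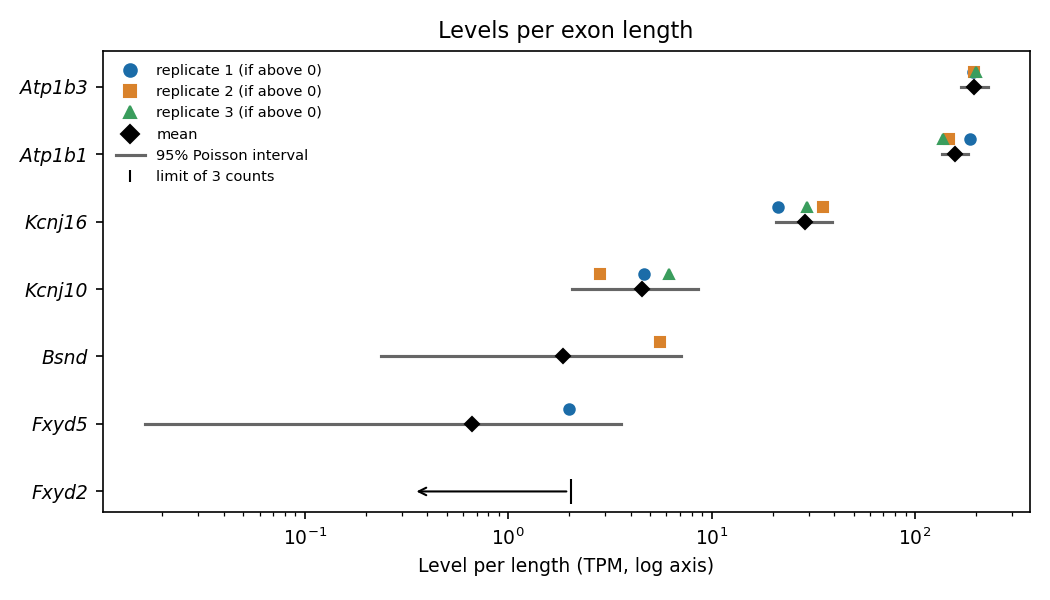
Levels per exon length (horizontal log axis, TPM) of the 7 genes. Diamonds are means over the libraries, coloured symbols are the libraries with counts, lines are 95% Poisson intervals of the summed count, and the arrow starts at the limit that 0 counts allow. The intervals of Atp1b1 and Atp1b3 overlap, and so do those of Kcnj10, Bsnd and Fxyd5.

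FXYD regulators were nearly without reads as a family. Fxyd2 (ENSMUSG00000059412, chromosome 9, 45399669 to 45410278, plus strand) encodes the gamma subunit, the FXYD protein of the distal convoluted tubule pump and a gene in which a mutation causes renal magnesium loss in people. It had 0 counts in each library, a level of up to 2.20 CPM. Per length that limit is 2.03 TPM with all 4005 exon bases, but 9.78 TPM with the longest coding transcript, which has 684 bases, so a low level of Fxyd2 messenger RNA could have gone unseen. Fxyd5 (ENSMUSG00000009687, chromosome 7, 31032722 to 31042481, minus strand) encodes dysadherin, a regulator with a long extracellular part that also affects cell adhesion. It had 1, 0 and 0 counts, with a Poisson interval of 0.0186 to 4.09 CPM. Its only read came from replicate 1, which gives a mean of 0.769 CPM. Per length Fxyd5 was at 0.00411 times the level of Atp1b1, with an interval of 0.000103 to 0.0232. The other 5 genes of the family, Fxyd1, Fxyd3, Fxyd4, Fxyd6 and Fxyd7, had 0 counts in every library. Of the 50-base stretches of Fxyd3, 39.9% occur in Lgi4, so its 0 counts are uncertain. No ratio of Fxyd5 to Fxyd2 or of Fxyd2 to Fxyd6 could be given, since Fxyd2 and Fxyd6 had 0 counts and Fxyd5 had 1.

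The potassium channel genes were unequal. Kcnj16 (ENSMUSG00000051497, chromosome 11, 110968033 to 111027968, plus strand) encodes a subunit that lends pH sensitivity to the channel and gives little current alone. It had 10, 18 and 14 counts, or 23.1, 37.3 and 31.4 CPM, with a mean of 30.6 ± 7.13 CPM. Kcnj10 (ENSMUSG00000044708, chromosome 1, 172341210 to 172374085, plus strand), which encodes the subunit that can form a channel by itself, had 3, 2 and 4 counts, or 6.92, 4.14 and 8.96 CPM, with a mean of 6.67 ± 2.42 CPM. Every library had more Kcnj16 than Kcnj10, and the values of the 2 genes did not overlap. Per length they stood at 28.7 ± 6.98 and 4.54 ± 1.66 TPM, and 73.0% and 54.7% of protein-coding genes lay below them. The ratio of Kcnj16 to Kcnj10 per length was 6.41, with a 95% counting interval of 3.08 to 15.0. Kcnj16 was in turn below the beta subunit, at 0.184 times the level of Atp1b1 per length (0.128 to 0.258).

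Of the 15 inward rectifier genes that were listed, 3 were detected (20%, against 50.6% of all protein-coding genes) and the remaining 12 had 0 counts. Kcnj16 held 76.4% of the 55 counts of the family (exact binomial interval 63.0 to 86.8%) and Kcnj10 16.4% (7.77 to 28.8%). The third was Kcnj4, a gene of brain and heart, with 2, 1 and 1 counts (2.98 ± 1.42 CPM). Its short exons brought it to 5.07 ± 2.35 TPM, within the spread of Kcnj10. The apical potassium channel gene Kcnj1, which serves potassium secretion, had 0 counts, as did Kcnj13 and Kcnj15. Kcnj2, the nearest gene after Kcnj16, had 0 counts. Per length Kcnj16 was at 19.4 times a floor of 3 counts over the libraries for Kcnj2. Without replicate 2 that value was 11.1. Kcnj9, which lies before Kcnj10, had 0 counts too, and Kcnj10 was at 2.38 times the same floor for Kcnj9 (1.32 without replicate 3). These values leave out the counting error of Kcnj16 and Kcnj10. The Poisson interval of Kcnj10 began at 2.06 TPM and that of Kcnj9 reached 2.33 TPM, so the intervals overlap. Reads shared with other genes make the 0 counts of Kcnj13 (42.1% of stretches shared with Gigyf2), Kcnj14 (30.8% shared with Gm5522) and Kcnj3 (29.3% shared with Gm26794) uncertain.

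**Figure D3:**
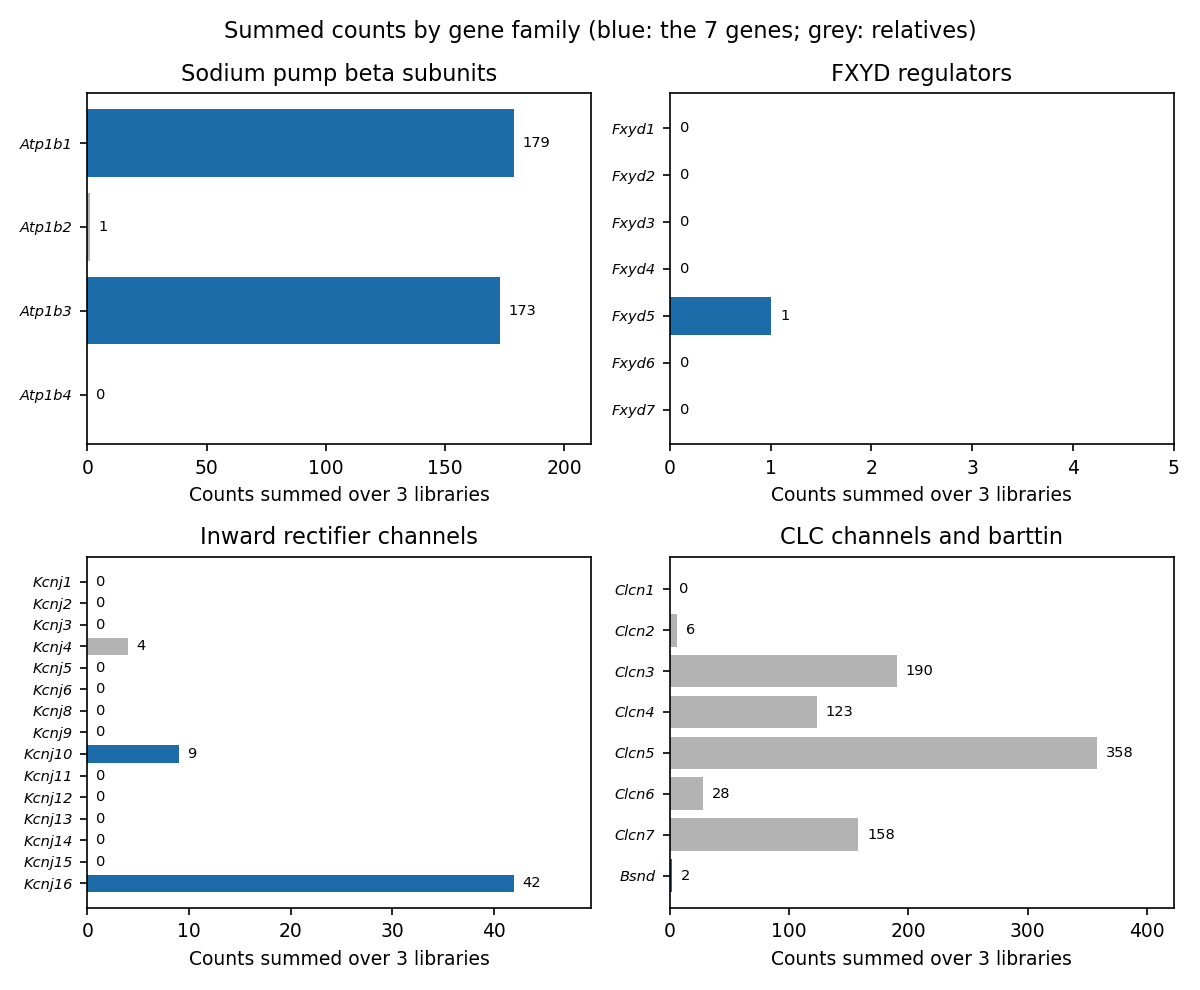
Counts summed over the 3 libraries (horizontal axis) for each gene of 4 families, with the 7 genes in blue and their relatives in grey; each panel has its own scale and bars are not divided by length. Atp1b1 and Atp1b3 hold nearly all beta subunit counts, Fxyd5 the only FXYD count, and Kcnj16 most inward rectifier counts, whereas Bsnd has 2 of 865 in its panel.

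The chloride channel subunit gene was at the detection limit. Bsnd (ENSMUSG00000025418, chromosome 4, 106483456 to 106492283, minus strand) encodes barttin and had 0, 2 and 0 counts, with a mean of 1.38 ± 2.39 CPM and a Poisson interval of 0.178 to 5.30 CPM. All of its counts came from replicate 2, so without that library it was not detected. Most of the CLC genes listed beside it, which encode mainly exchangers of endosomes and lysosomes, were expressed, while Clcn1, a channel gene of skeletal muscle, had 0 counts. Clcn5, of endosomes, was at 264 ± 51.2 CPM, Clcn3 at 139 ± 16.2 CPM, the lysosomal Clcn7 at 115 ± 14.5 CPM and Clcn4 at 90.2 ± 10.1 CPM. Of the 8 genes in the list, Bsnd included, 7 were detected (87.5%, against 50.6% of all protein-coding genes). Bsnd held 0.231% of their 865 counts (exact binomial interval 0.0280 to 0.833%).

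Ordered by level per length, the genes ran Atp1b3, Atp1b1, Kcnj16, Kcnj10, Bsnd, Fxyd5 and Fxyd2. Only the steps from Atp1b1 to Kcnj16 and from Kcnj16 to Kcnj10 had intervals away from 1 under each definition of length that was tried. Kcnj10 was at 2.29 times Bsnd per length, with an interval of 0.475 to 21.8, and in replicate 2 the direction turned. Without replicate 3 that ratio was 1.27, and the mean of the log2 ratios of the libraries gave 9.44 with 0.1 CPM added to both genes. Bsnd was at 3.04 times Fxyd5, with an interval of 0.158 to 179. These neighbours could not be told apart at this depth. Of the 10 pairs formed, 6 had counts for both genes, and 4 of these had a single direction in all libraries. An exact sign-flip permutation test of 3 libraries cannot give a two-sided p below 0.25, which those 4 pairs reached (Benjamini-Hochberg adjusted p = 0.375 over the 6 pairs). With all 3 libraries in a single group no pattern over conditions exists to be matched, so likeness was taken as the nearest level per length. The protein-coding genes nearest to Atp1b1 (157 TPM) were Ubqln4 at 158 ± 37.0 TPM and Magt1 at 158 ± 11.3 TPM, and those nearest to Atp1b3 (196 TPM) were Tmpo at 196 ± 2.38 TPM and Fen1 at 196 ± 16.9 TPM.

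**Figure D4:**
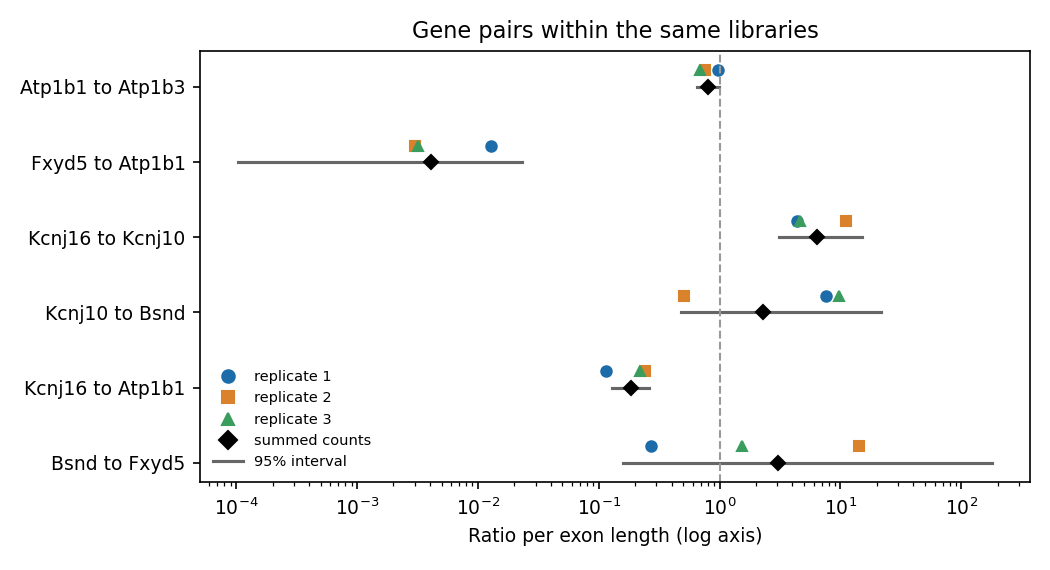
Ratios of gene pairs per exon length (horizontal log axis; dashed line at 1). Diamonds are summed over the libraries, lines are their 95% binomial intervals, and coloured symbols are the ratios in each library after adding 0.5 CPM to both genes, so symbols of genes with 0 or few counts depend on that addition. The pairs of Kcnj16 with Kcnj10 and with Atp1b1 lie clear of 1, and the pairs that hold Bsnd do not.

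Differences between the libraries in these genes did not pass a test against counting error. The counts of all 12473 detected genes were set against library size by chi-square, with Benjamini-Hochberg adjustment, and 5 genes (0.0401%) but 0 of the 5 detected members passed. With replicates 1, 2 and 3 left out in turn, 1, 3 and 3 genes passed and again 0 members. Adjusted p-values were 0.902 for Atp1b1 and Bsnd, 0.999 for Atp1b3, 0.956 for Kcnj10 and 0.940 for Kcnj16. At an unadjusted p under 0.05 there were 610 genes (4.89% of those tested) and again 0 of the 5. At so small a share 0 of 5 says little about the members. Bsnd could not have passed with or without adjustment, since its 2 counts both lay in replicate 2 and the chi-square p was still 0.162. Kcnj10, on 9 counts, had little room to pass after adjustment. An exact multinomial test also called 0 of them. Fxyd2 and Fxyd5 were below the level at which genes were tested. Since no label tells whether the replicates are separate cultures, such p-values speak of these samples alone, and their spread may be technical.

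Most of the listed genes that act on the pump and on these channels were detected, and whether this is particular to them was not tested. The lists here and below were chosen with earlier results of these data known, so their shares are no test against all genes. Of 9 genes of pump folding and membrane anchoring all were detected, against 50.6% of all protein-coding genes, with a median of 274 CPM. Among them was the chaperone gene Canx, whose product binds new glycoproteins such as the beta subunit, at 1237 ± 12.8 TPM (1577 CPM). The chaperone gene Hspa5 was at 925 ± 66.6 TPM (1062 CPM). The spectrin genes Sptan1 and Sptbn1, of the skeleton under the lateral membrane, were at 588 ± 27.5 and 294 ± 8.73 TPM (2136 and 1399 CPM). Ank3, which encodes the ankyrin that tethers the pump in epithelia, had 30, 58 and 54 counts. Its level depended on the unit. At 103 CPM it lay above 88.3% of protein-coding genes. At 11.0 ± 3.25 TPM, with 34838 exon bases in the length, it lay above 60.9%.

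Of 8 transcription factors and cofactors known to act on pump or channel genes, 5 were detected (62.5%, against 50.6% of all protein-coding genes). The median over the 8 was 90.2 CPM. Pcbd1, which encodes a pterin enzyme that is also a transcription cofactor, was at 273 ± 60.7 TPM, but at 60.6 CPM it lay below that median. The glucocorticoid receptor gene Nr3c1 was at 70.9 ± 3.55 TPM (148 CPM), while Nr3c2, the mineralocorticoid receptor gene, had 1 count. Sp1 and Sp3 were at 174 ± 25.8 and 126 ± 30.6 TPM (389 and 168 CPM). Snai1 and Snai2, which encode repressors of epithelial genes, had 1 and 0 counts.

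All 6 listed regulators of basolateral channels were detected, against 50.6% of all protein-coding genes, with a median of 85.7 CPM. Cav1 (131 ± 31.5 TPM, 123 CPM) and Src (102 ± 20.9 TPM, 121 CPM) encode a caveolar scaffold and a kinase that act on the Kcnj10 channel. The ubiquitin ligase gene Nedd4l was at 23.9 ± 3.73 TPM (114 CPM) and Magi1, a scaffold, at 19.9 ± 1.80 TPM (57.1 CPM). The kinase gene Sgk1 was at 13.7 ± 1.86 TPM (18.3 CPM). Casr, the calcium-sensing receptor gene, was detected on 2 counts. After adjustment no gene of these 3 lists was called different between the libraries, against 0.0401% of all genes tested. Some had an unadjusted chi-square p under 0.05, as did 4.89% of all genes tested. They were Sp3 (0.0165), Ank3 (0.0239), Sptan1 (0.0315), Cav1 (0.0377), Sp1 (0.0404) and Hspa5 (0.0461), and the other tested genes of the lists were not under 0.05. The hydrogen potassium pump genes, whose beta subunit is a relative of Atp1b1, had 1 count for Atp4a, 0 for Atp4b and 2 for Atp12a.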

How the data were processed

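Per the labels, libraries were made from 500 ng of total RNA after removal of ribosomal RNA, with fragments near 300 bp. Raw counts per Ensembl gene and library were deposited by the authors, from reads aligned to mm10 with tools that include STAR and HTSeq, per the submitters' processing notes. Versions, strand setting and annotation were not given in the sources used here. Columns were matched to replicates by number.

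GENCODE M21 gave symbols, positions and exons (55227 of 55487 identifiers matched, and the others held 313 counts, or 0.0230%). CPM used edgeR 4.0.16 trimmed-mean library sizes (R 4.3.3), and TPM used the union of exons. Pairs were tested as log2 ratios of CPM + 0.5. scipy 1.17.1, pandas 2.3.3 and numpy 2.4.6 were used. Alternatives were DESeq2 1.42.0 size factors or totals, other filters, lengths and pseudocounts, an exact test up to 300 counts, and leaving out each replicate.

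The genes and lists were chosen with earlier results of these data known. Some genes of the lists, and pairs that hold them, are not reported here. Named were all 7 genes, the pairs, the highest and the 0-count genes of each list, the nearest genes on each side, and the 2 genes nearest to each beta subunit gene in TPM. Fam187b, Kcnj13, Kcnj15 and the genes that share reads were named after their values were seen.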

Additional observations from a re-analysis of the deposited data

How the results depend on the processing

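With DESeq2 size factors or library totals the levels of the 6 genes with counts moved by less than their SD. Leaving out a replicate took Bsnd from 1.38 CPM to between 0 and 2.07 and Fxyd5 from 0.769 CPM to between 0 and 1.15. With at least 10 counts required, 3 of the 7 genes were detected in place of 5. The order of the genes changed for 2 neighbours at the low end, leaving 5 of 7 in place, with the median transcript length; with a replicate left out, 5 to 7 kept their place. The ratio of Atp1b1 to Atp1b3 turned to 1.03 without division by length, which follows from their exon lengths. With the median transcript length Kcnj16 to Atp1b1 was 0.0401, and Kcnj10 was at 1.26 times the floor of 3 counts for Kcnj9. Leaving out a replicate gave 11.1 to 14.8 for Kcnj16 over the floor of Kcnj2 and 1.32 to 1.85 for Kcnj10 over that of Kcnj9. These are lower by construction, since fewer counts were summed. Counts of detected genes per list moved by over 1.5 times in 13 of 90 recomputations. Genes that differed between libraries numbered 1, 3 and 3 without replicates 1, 2 and 3, in place of 5, and 0 members were called in any setting. Without replicate 2 or 3 the FXYD family had 1 gene at 1 CPM, Fxyd5, by the worth of 1 count. Where no value is named, the cause of a change was not tested. No paired analysis was possible because there is a single group. Depth limits Kcnj10, Bsnd, Fxyd5 and Fxyd2 most, since each had 9 counts or fewer.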

Other observations

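Genes that flank the members are described here by counts alone. Kcnj9, before Kcnj10, had 0 counts, which allows up to 2.20 CPM, and Pigm, an enzyme gene of membrane anchor synthesis that starts 2460 bases after Kcnj10 on the same strand, had 26, 21 and 20 counts (49.4 ± 9.17 CPM). Kcnj10 itself had 9 counts in all.

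The FXYD loci had hardly any reads. Fxyd6 ends 3509 bases before Fxyd2, and both had 0 counts, as did Dscaml1, the next protein-coding gene after Fxyd2. Fxyd7 lies 31 bases from the start of Fxyd5 on the same strand and had 0 counts, and Fam187b on the other side had 2. The nearest protein-coding gene before Kcnj16, Map2k6, lies 442510 bases away at 14.5 ± 5.81 CPM. On the other side Kcnj2 lies 38195 bases after Kcnj16 and had 0 counts. The gene before Atp1b3, Tfdp2, a partner of E2F factors, had 23, 31 and 22 counts (55.5 ± 7.75 CPM), and Rnf7 after it 10, 6 and 13 counts.

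Fxyd5 is known to weaken adhesion through E-cadherin, so the adherens junction genes were listed as well. All 4 were detected, against 50.6% of all protein-coding genes, and this list too was chosen with earlier results of these data known. Cdh2, the N-cadherin gene, stood at 120 ± 10.9 TPM and Cdh1, the E-cadherin gene, at 51.5 ± 17.0 TPM, with 121, 133 and 104 counts against 19, 41 and 28. Cdh2 was the higher gene in each library. Ctnna1 and Ctnnb1 had 417, 450 and 429 counts and 279, 333 and 278 counts.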
